A study of Saccharomyces cerevisiae with 5 samples.

Results

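A pair of salt-stressed derivatives of the same budding yeast mutant were compared gene by gene. The strain bdf1Δ+HAL2 lacks BDF1 and carries extra HAL2, which the series title describes as overexpression, and the strain bdf1Δhda1Δ lacks BDF1 and HDA1. Both were hybridised against bdf1Δ, so the deletion of BDF1 is shared by every culture used here. All cultures had received 0.5 mol/L NaCl for 45 min, per the labels. Each modified strain was set against bdf1Δ on 2 arrays with the Cy5 and Cy3 dyes exchanged, and the difference between the strains was taken through bdf1Δ. For each gene it was the mean log2 ratio of bdf1Δ+HAL2 over bdf1Δ minus the mean log2 ratio of bdf1Δhda1Δ over bdf1Δ, so a positive value means a higher level in bdf1Δ+HAL2. Of 6388 gene probes, 2059 were measured on all 4 arrays and make up the comparison. The labels do not say how HAL2 was expressed, whether more than 1 clone of a strain was grown, or whether the bdf1Δ sample was the same for both strains.

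BDF1 encodes a bromodomain protein that binds acetylated histones and works with the general transcription factor TFIID. HAL2, listed in the gene table as MET22, encodes a sodium-sensitive phosphatase that clears a nucleotide by-product of sulphate assimilation. HDA1 encodes the catalytic subunit of a histone deacetylase complex that represses transcription. Loss of a deacetylase and gain of a phosphatase are thus different interventions in a strain with the same starting defect.

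Each pair of exchanged-dye arrays repeated 1 test sample and 1 control sample, so each strain is represented by 1 sample and no p-value was computed. The SD given with a difference is the spread between its values in the 2 dye orientations and covers technical variation only. Following the selection rule in the labels, a gene was called higher or lower when the difference exceeded 2-fold in the same direction in both orientations, and a difference that met no such call is given as a value. The number of arrays limits the precision. Over all genes the median SD was 0.15 on the log2 scale, the median difference was 0.00, and 5% of genes lay below −0.71. The image software had found 72.9% and 68.9% of the gene spots on the bdf1Δ+HAL2 arrays, and 32.9% and 40.3% on the bdf1Δhda1Δ arrays. The comparison therefore covers bright genes: on array 1 of the bdf1Δ+HAL2 pair the bdf1Δ channel had a median net intensity of 3448 for genes that were measured on all 4 arrays and of 465 for the others. In RNA from whole cultures, fewer cells that express a gene and less RNA per cell cannot be told apart.

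The strain labels were checked against the genes that define them. MET22 (YOL064C) had log2 ratios of 3.83 and 3.62 over bdf1Δ on the bdf1Δ+HAL2 arrays. On the bdf1Δhda1Δ arrays its spots were not found, with net intensities of 491 and 353 in bdf1Δhda1Δ and of 232 and 520 in bdf1Δ, so it is not among the 2059 genes. HDA1 (YNL021W) was not measured either. Its net intensity was 317 and 188 in bdf1Δ+HAL2, against 15 and −23 in bdf1Δhda1Δ. In that strain channel 3 of 3 spots exceeded background on array 1 of bdf1Δ+HAL2 and 0 on the other 3 arrays. In bdf1Δ, its net intensity was 184 and 155 on the bdf1Δ+HAL2 arrays and 23 and 187 on the bdf1Δhda1Δ arrays. On array 1 of bdf1Δhda1Δ neither channel exceeded background, so that array cannot show the deletion. BDF2 (YDL070W), the paralogue of BDF1, had log2 ratios of −0.26 and −0.74 in bdf1Δ+HAL2, against 0.39 and 0.36 in bdf1Δhda1Δ. Its difference of −0.87 ± 0.32 (SD, 2 orientations) was not called. Of the genes specific to mating type a, 3 were measured, and of those specific to mating type alpha 0.

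The strains differed by the 2-fold rule in 52 genes, counted by probe. Of the 2059, 16 genes (0.777%) were higher and 36 (1.75%) were lower in bdf1Δ+HAL2 than in bdf1Δhda1Δ. The higher genes were led by enzymes of pyrimidine synthesis and by permeases and enzymes of nitrogen use. The lower genes were led by the processing protease gene KEX1 and included hexose transporters and phosphate scavenging genes. They also included the iron genes FIT2 and TIS11, which had the opposite sign in a direct comparison of the strain channels. Against bdf1Δ itself and over the same 2059 genes, the rule called 0.534% higher and 0.971% lower in bdf1Δ+HAL2, and 0.923% higher and 0.631% lower in bdf1Δhda1Δ. Both comparisons use bdf1Δ as their reference.

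The 16 higher genes had a median log2 ratio of 0.76 in bdf1Δ+HAL2 and of −0.70 in bdf1Δhda1Δ. Measured against bdf1Δ, 4 of them were called higher in bdf1Δ+HAL2, another 4 were called lower in bdf1Δhda1Δ, and 8 were called in neither strain. The 36 lower genes had a median of −0.83 in bdf1Δ+HAL2 and of 0.54 in bdf1Δhda1Δ. Against bdf1Δ, 11 of these were called lower in bdf1Δ+HAL2 alone, 5 were called higher in bdf1Δhda1Δ alone, 1 was called in opposite directions, 1 was called higher in both strains, and 18 were called in neither. More of the 52 genes thus passed 2-fold between the modified strains without a call against bdf1Δ than with a call in any single one of these patterns. A further 24 genes had a mean difference over 2-fold that 1 of the 2 orientations did not reach. The called genes nearest the threshold were YPK2 (−1.06 ± 0.02) and YRO2 (1.10 ± 0.01).

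**Figure D1:**
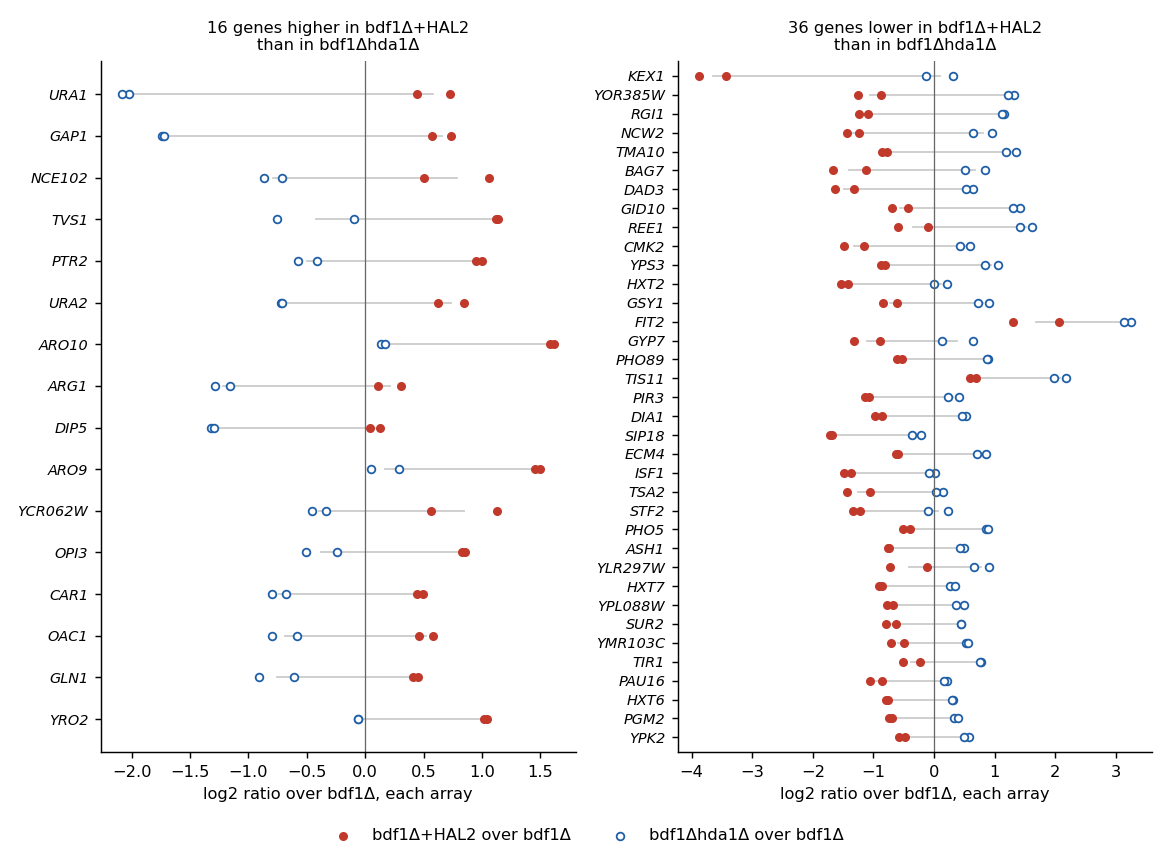
Log2 ratio over bdf1Δ on each of the 2 arrays of bdf1Δ+HAL2 (filled red) and of bdf1Δhda1Δ (open blue) for the 16 genes called higher (left) and the 36 called lower (right) in bdf1Δ+HAL2, with a grey line joining the strain means. URA1 and GAP1 lie lowest in bdf1Δhda1Δ in the left panel, and KEX1 lies near −4 in bdf1Δ+HAL2 in the right panel.

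The largest positive difference belonged to pyrimidine synthesis. URA1 (YKL216W), dihydroorotate dehydrogenase, had log2 ratios of 0.72 and 0.45 in bdf1Δ+HAL2, against −2.02 and −2.08 in bdf1Δhda1Δ. Both arrays of bdf1Δ+HAL2 lay above bdf1Δ and both arrays of bdf1Δhda1Δ lay below it. The difference was 2.63 ± 0.15, or 6.21-fold. URA2 (YJL130C), which carries out the opening steps of the pathway, stood at 0.63 and 0.84 in bdf1Δ+HAL2, against −0.72 and −0.71 in bdf1Δhda1Δ, a difference of 1.45 ± 0.14. Of 14 measured genes of pyrimidine synthesis and salvage, these 2 were higher, 0 were lower, and 8 of 14 differences were above 0, with a median of 0.12. Chosen after their values were seen, URA4, dihydroorotase, had a difference of 1.19 ± 0.29 that array 1 did not carry past 2-fold. URA8, CTP synthase, lay in the other direction, at −0.01 in bdf1Δ+HAL2 and 1.02 in bdf1Δhda1Δ, and was not called (−1.03 ± 0.13). URA3 (−0.53 ± 0.10) is also a common selectable marker, and the labels do not say which markers the strains carry.

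Of 12 measured amino acid permeases, 3 were higher and 0 lower in bdf1Δ+HAL2. Yeast takes up amino acids through permeases and, when preferred nitrogen is scarce, induces permeases and catabolic enzymes of wide range. GAP1 (YKR039W), the general amino acid permease, had log2 ratios of 0.73 and 0.57 in bdf1Δ+HAL2, against −1.74 and −1.73 in bdf1Δhda1Δ. The 4 arrays separated fully by strain, and the difference was 2.39 ± 0.13, or 5.24-fold. DIP5 (YPL265W), the permease for glutamate and aspartate, stood at 0.04 and 0.12 in bdf1Δ+HAL2, against −1.32 and −1.30 in bdf1Δhda1Δ, so its difference of 1.39 ± 0.04 lay almost wholly on the bdf1Δhda1Δ arrays. PTR2 (YKR093W), the transporter of di- and tripeptides, stood at 1.00 and 0.95 in bdf1Δ+HAL2, against −0.41 and −0.58 in bdf1Δhda1Δ (difference 1.47 ± 0.08). For PTR2 the sign depended on the bdf1Δ channel: the 2 strains' own channels, scaled to a common distribution and centred on the median gene, differed by −0.56. In the list of permeases 10 differences were above 0, and the median was 0.22.

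Of 14 measured genes of nitrogen use and aromatic breakdown, 4 were higher and 0 lower in bdf1Δ+HAL2. ARO10 (YDR380W), phenylpyruvate decarboxylase, had log2 ratios of 1.62 and 1.58 in bdf1Δ+HAL2, against 0.13 and 0.17 in bdf1Δhda1Δ. ARO9 (YHR137W), the aromatic aminotransferase that acts before it, had 1.45 and 1.50 in bdf1Δ+HAL2, against 0.29 and 0.05 in bdf1Δhda1Δ. Both genes lay near bdf1Δ in bdf1Δhda1Δ, and their differences were 1.45 ± 0.05 and 1.31 ± 0.20. ARO9 was not called in the direct, centred comparison (1.04). CAR1 (YPL111W), arginase, stood at 0.50 and 0.44 in bdf1Δ+HAL2, against −0.68 and −0.80 in bdf1Δhda1Δ. Its difference was 1.21 ± 0.05. GLN1 (YPR035W), glutamine synthetase, had a difference of 1.19 ± 0.24 and was not called by print-tip loess, which normalizes each printing block on its own (0.94), nor with the authors' deposited ratio. The median of the list was 0.61, and 10 of 14 differences were above 0. The 4 below 0, chosen after their values were seen, were PUT1 (−0.47), UGA2 (−0.30), SFA1 (−0.19) and GDH2 (−0.11), none of them called. With the strain channels set against each other directly and centred, the median was 0.96.

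The general amino acid control list holds biosynthetic genes known to be activated by the transcription factor Gcn4 when amino acids run short. Of its 41 measured members 36 had a difference above 0 and 2 were called, both higher. Its median was 0.35, against 0.00 over all genes, and 0.62 in the direct, centred comparison of the strain channels. ARG1 (YOL058W), argininosuccinate synthase, had log2 ratios of 0.31 and 0.11 in bdf1Δ+HAL2, against −1.16 and −1.29 in bdf1Δhda1Δ. The difference of 1.43 ± 0.05 again lay mostly on the bdf1Δhda1Δ arrays, and GLN1 was the other called member. GCV3, a subunit of glycine decarboxylase, had the next difference in this list, at 1.12 ± 0.20, which array 1 did not carry past 2-fold. GCN4 itself, also counted in this list and chosen after its value was seen, stood at −0.02 in bdf1Δ+HAL2 and 0.07 in bdf1Δhda1Δ. These are RNA levels, and the amount and activity of the Gcn4 protein were not measured.

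**Figure D2:**
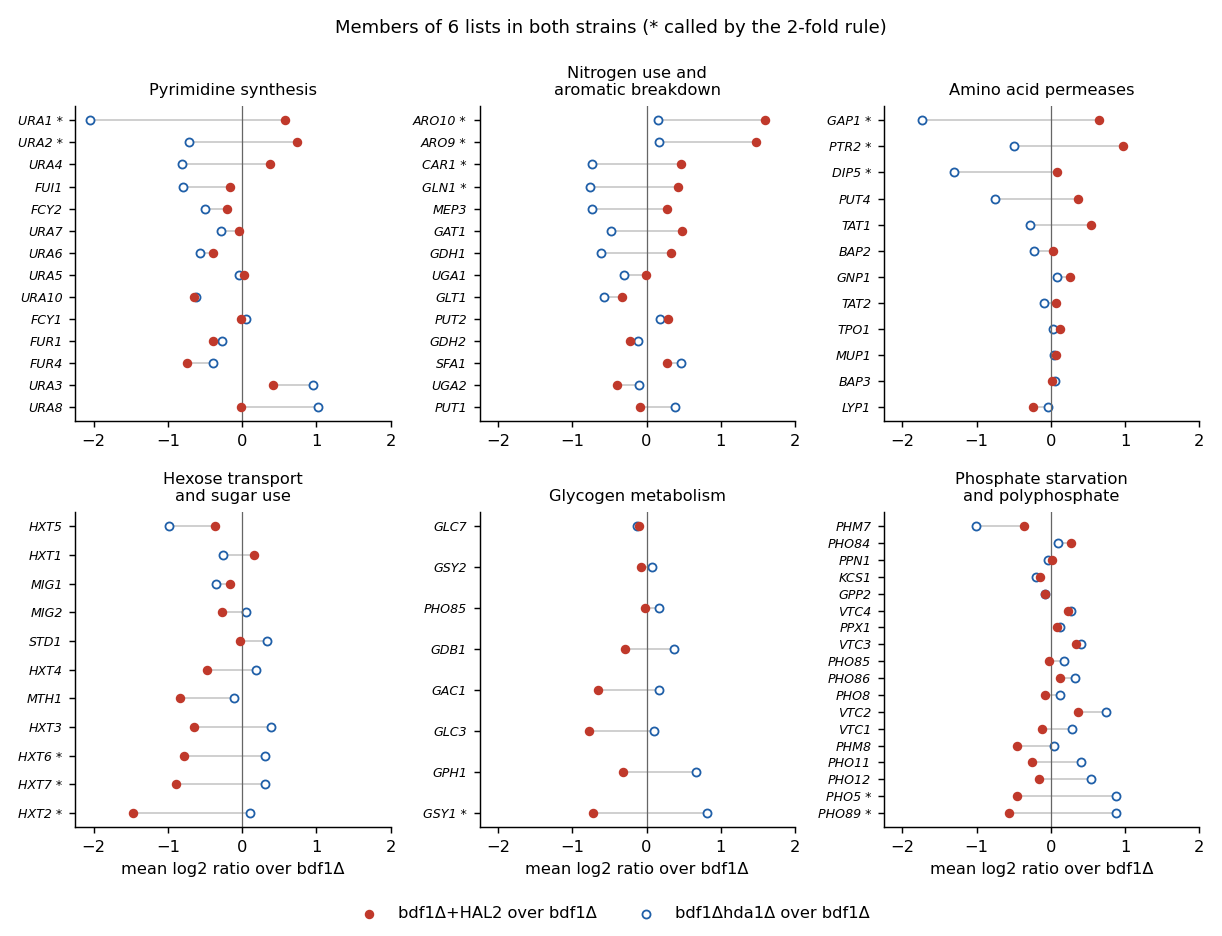
Mean log2 ratio over bdf1Δ (2 arrays each) in bdf1Δ+HAL2 (filled red) and bdf1Δhda1Δ (open blue) for the measured members of 6 lists, ordered by the difference, with an asterisk on genes called by the 2-fold rule. In the upper row the called genes lie to the right in bdf1Δ+HAL2, and in the lower row to the left.

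Among 10 measured genes of inositol and phospholipid synthesis, 1 was higher in bdf1Δ+HAL2. OPI3 (YJR073C), the methyltransferase of the last steps of phosphatidylcholine synthesis, had log2 ratios of 0.86 and 0.82 in bdf1Δ+HAL2, against −0.51 and −0.24 in bdf1Δhda1Δ. Its difference was 1.22 ± 0.21, and it was not called by print-tip loess (0.87), after median centring alone (1.06) or with the authors' deposited ratio (0.95). In the list 9 of 10 differences were above 0, with a median of 0.59. ITR1, the main inositol transporter, and CDS1, which makes CDP-diacylglycerol, had differences of 0.84 ± 0.12 and 0.84 ± 0.33 and were not called. All 10 members lay above bdf1Δ in bdf1Δ+HAL2, and 6 did so in bdf1Δhda1Δ.

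The remaining higher genes encode membrane proteins. NCE102 (YPR149W), which helps organise the eisosome domains of the plasma membrane, stood at 0.51 and 1.06 in bdf1Δ+HAL2, against −0.86 and −0.71 in bdf1Δhda1Δ (difference 1.57 ± 0.29). OAC1 (YKL120W), a mitochondrial carrier of oxaloacetate and sulphate, stood at 0.58 and 0.46 in bdf1Δ+HAL2, against −0.58 and −0.79 in bdf1Δhda1Δ (difference 1.20 ± 0.07). TVS1 (YCR061W) and YRO2 (YBR054W), membrane proteins, had differences of 1.55 ± 0.47 and 1.10 ± 0.01. TVS1 was not called in the direct, centred comparison (0.69). YRO2 lost its call under 4 planned settings. These were print-tip loess, median centring alone, the direct comparison as measured and the authors' deposited ratio. All 4 genes separated by strain on every array. The gene table lists YCR062W as an older name of TVS1, so its separate probe, called too (1.24 ± 0.32), is not a further gene. That probe was not called by print-tip loess (0.90) or without array 1 of bdf1Δ+HAL2 (0.96).

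Among the lower genes KEX1 (YGL203C) stood apart. It encodes the Golgi carboxypeptidase that trims killer toxin and α-factor precursors. Its log2 ratios were −3.87 and −3.43 in bdf1Δ+HAL2, against −0.12 and 0.32 in bdf1Δhda1Δ. KEX1 was thus near the bdf1Δ level in bdf1Δhda1Δ, and its difference averaged −3.75. In bdf1Δ+HAL2 it was not well above background on 1 of the 2 arrays, so the size is uncertain, and the 4 pairings of arrays ran from −4.19 to −3.30. YPS3 (YLR121C), a cell surface aspartic protease, stood at −0.88 and −0.81 in bdf1Δ+HAL2, against 1.05 and 0.84 in bdf1Δhda1Δ (difference −1.79 ± 0.20). Among 15 measured vacuolar and secretory proteases these 2 were lower and 0 higher, with a median of −0.23. The pheromone response list, which also holds KEX1, had 5 measured genes, 1 of them called, and a median of −0.37. The other members below 0 were FUS3, the mating kinase (−0.43 ± 0.21), STE4, a G protein subunit (−0.37 ± 0.18), and PRM5 (−0.047), chosen after its value was seen. The remaining member, STE24, chosen likewise and not called, lay above 0 at 0.49. In the direct, centred comparison that median was 0.032.

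Of the genes of hexose transport and sugar use, 3 of 11 measured were lower in bdf1Δ+HAL2. HXT2 (YMR011W), a hexose transporter of high affinity, had log2 ratios of −1.43 and −1.53 in bdf1Δ+HAL2, against 0.00 and 0.22 in bdf1Δhda1Δ, and its difference was −1.59 ± 0.22. HXT7 (YDR342C) stood at −0.90 and −0.87 in bdf1Δ+HAL2, against 0.27 and 0.35 in bdf1Δhda1Δ (difference −1.20 ± 0.03). HXT6 (YDR343C), the adjacent and near-identical gene, had a difference of −1.08 ± 0.00, so the 2 probes cannot be taken as independent and the copy is uncertain. By print-tip loess HXT6 was not called (−0.99), and in the direct, centred comparison neither HXT7 (−0.79) nor HXT6 (−0.66) was. The list had 0 higher genes and a median of −0.66, or −0.36 by print-tip loess. The 3 members above 0, chosen after their values were seen, were HXT5 (0.63), HXT1 (0.42) and MIG1 (0.19), none of them called.

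GSY1 (YFR015C), glycogen synthase, stood at −0.84 and −0.61 in bdf1Δ+HAL2, against 0.90 and 0.73 in bdf1Δhda1Δ. The strains lay on opposite sides of bdf1Δ, and the difference was −1.54 ± 0.29. It was the called member among 8 measured glycogen genes, of which 7 had a difference below 0, with a median of −0.74. GPH1, glycogen phosphorylase (−0.99 ± 0.20), and GLC3, the branching enzyme (−0.87 ± 0.13), were not called. Enzymes of synthesis and of breakdown thus lay on the same side. PGM2 (YMR105C), phosphoglucomutase, was lower (−1.08 ± 0.09, but −0.38 and not called in the direct, centred comparison), the called member among 8 genes of trehalose metabolism, whose median was −0.10.

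In the phosphate list 2 of 18 measured genes were lower in bdf1Δ+HAL2 and 0 were higher. PHO89 (YBR296C), the sodium-coupled phosphate transporter, stood at −0.61 and −0.52 in bdf1Δ+HAL2, against 0.89 and 0.88 in bdf1Δhda1Δ (difference −1.45 ± 0.07). PHO5 (YBR093C), the repressible acid phosphatase, stood at −0.40 and −0.51 in bdf1Δ+HAL2, against 0.86 and 0.89 in bdf1Δhda1Δ (difference −1.33 ± 0.10, but −0.83 and not called in the direct, centred comparison). Neither gene was called against bdf1Δ in either strain, yet their arrays separated fully by strain. The median of the list was −0.20. PHO84, the main high-affinity phosphate transporter, and the near-identical PHO11 and PHO12, all 3 chosen after their values were seen, had differences of 0.17, −0.66 and −0.70 and were not called.

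Of 16 measured iron genes, 14 lay above bdf1Δ in bdf1Δ+HAL2 and 14 in bdf1Δhda1Δ. The list had a median log2 ratio of 0.85 in bdf1Δ+HAL2 and of 1.41 in bdf1Δhda1Δ, and a median difference of −0.17, with 2 lower and 0 higher. FIT2 (YOR382W), a cell wall mannoprotein that retains siderophores, stood at 1.31 and 2.07 in bdf1Δ+HAL2, against 3.25 and 3.13 in bdf1Δhda1Δ. TIS11 (YLR136C), an RNA-binding protein that destabilises transcripts of iron-consuming pathways, stood at 0.59 and 0.69 in bdf1Δ+HAL2, against 2.17 and 1.98 in bdf1Δhda1Δ. Their differences were −1.51 ± 0.62 and −1.43 ± 0.21, and scale normalization between arrays called neither (−0.69 and −0.99). For both genes the bdf1Δ channel differed between the pairs by over 2-fold, and the strain channels compared directly and centred gave 0.39 for FIT2 and 1.48 for TIS11, the opposite sign. In that comparison TIS11 was called higher in bdf1Δ+HAL2 and FIT2 was not called. In bdf1Δ, TIS11 was not well above background on 1 of the 2 arrays of the bdf1Δhda1Δ pair. The reductive uptake genes FET3, FTR1 and FRE1, chosen after their values were seen, had differences of 0.04, −0.05 and −0.12. Other members, chosen likewise and not called, lay further from 0: HMX1 and FIT3 both at −0.94, SIT1 at −0.67, ENB1 at −0.63 and SMF3 at 0.51.

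REE1 (YJL217W), a regulator of enolase whose transcription responds to copper shortage, stood at −0.60 and −0.10 in bdf1Δ+HAL2, against 1.41 and 1.62 in bdf1Δhda1Δ. Its difference was −1.87 ± 0.20, and it was called higher in bdf1Δhda1Δ against bdf1Δ. It was the called member among 6 measured genes of the copper list, with a median of −0.60 that was 0.045 in the direct, centred comparison. None of the 6 is a copper transporter, so the median does not describe copper uptake. CRS5, a metallothionein (−0.98 ± 0.03), and COX17, a copper chaperone (−0.66 ± 0.48), were not called. CUP1-1 and CUP1-2, identical metallothionein copies chosen after their values were seen, both stood at 0.29. The remaining member, SOD1, superoxide dismutase and chosen likewise, stood at −0.55.

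**Figure D3:**
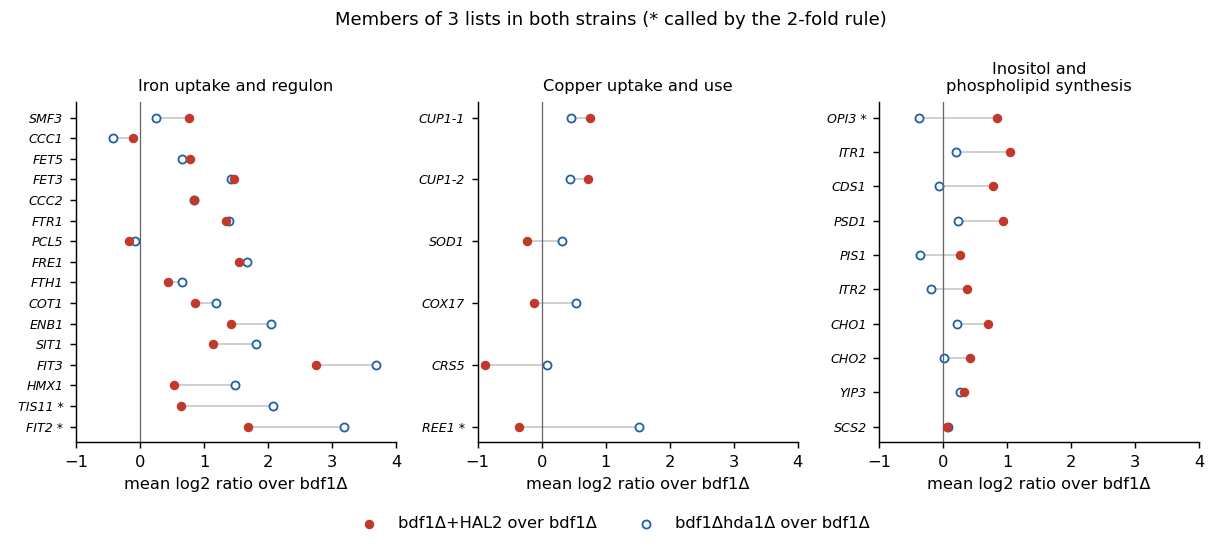
Mean log2 ratio over bdf1Δ (2 arrays each) in bdf1Δ+HAL2 (filled red) and bdf1Δhda1Δ (open blue) for measured genes of iron uptake, copper uptake and use, and inositol and phospholipid synthesis, with an asterisk on called genes. FET3, FTR1 and FRE1 nearly coincide between strains, while FIT2, TIS11 and REE1 lie further right in bdf1Δhda1Δ, and OPI3 lies further right in bdf1Δ+HAL2. FIT2 (0.39) and TIS11 (1.48) had the opposite sign in the direct, centred comparison.

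The called stress genes were all lower in bdf1Δ+HAL2. RGI1 (YER067W), a gene of energy metabolism under respiratory growth, was the gene called in opposite directions against bdf1Δ, at −1.24 and −1.08 in bdf1Δ+HAL2 and 1.16 and 1.12 in bdf1Δhda1Δ. Its difference was −2.30 ± 0.14, and on 1 of the 2 arrays of bdf1Δ+HAL2 its strain channel was not well above background, so the size is uncertain. TMA10 (YLR327C), a ribosome-associated protein, stood at −0.86 and −0.78 in bdf1Δ+HAL2, against 1.36 and 1.18 in bdf1Δhda1Δ (difference −2.09 ± 0.18). In the direct, centred comparison TMA10 was not called (−0.87). The list of general stress genes had these 2 called members among 31 measured and a median of 0.01. SIP18 (YMR175W), a salt-induced hydrophilin, had a difference of −1.41 ± 0.13 and was the called member among 17 hyperosmotic genes. It was not called in the direct, centred comparison (−0.58). The hyperosmotic list had a median of −0.20, with 4 members above 0 and 13 below. Members above 0, chosen after their values were seen and not called, included AQY1 (0.98), GPD1 (0.70) and STL1 (0.64). STF2 (YGR008C), a hydrophilin related to TMA10, and TSA2 (YDR453C), a peroxiredoxin, both differed by −1.34, with SDs of 0.32 and 0.18. Both were called lower in the direct comparison as measured (−1.28 and −1.14), and neither after centring (−1.09 and −0.95). TSA2 was the called member among 23 oxidative stress genes, of which 18 were below 0, with a median of −0.28. ECM4 (YKR076W), a glutathione transferase, was lower as well (−1.40 ± 0.13).

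Of 32 measured genes in the cell wall list, 1 was lower and 0 were higher in bdf1Δ+HAL2, and 12 differences were above 0. Other called genes for surface proteins lie outside that list. NCW2 (YLR194C), a structural protein of the wall, stood at −1.44 and −1.23 in bdf1Δ+HAL2, against 0.96 and 0.64 in bdf1Δhda1Δ (difference −2.14 ± 0.38). PIR3 (YKL163W), a protein linked to the glucan of the wall, stood at −1.08 and −1.14 in bdf1Δ+HAL2, against 0.41 and 0.22 in bdf1Δhda1Δ (difference −1.43 ± 0.09). Both had arrays on opposite sides of bdf1Δ in the 2 strains. In the direct, centred comparison neither NCW2 (−0.93) nor PIR3 (−1.05) was called. PIR3 was the called gene of the cell wall list, whose median was −0.20. The list of seripauperins, DAN and TIR mannoproteins had 6 measured genes, 2 lower and 0 higher. Of its differences 3 were above 0, and the median was −0.24. TIP1, chosen after its value was seen and not called, lay highest at 0.99. The called members TIR1 (YER011W) and PAU16 (YKL224C) both differed by −1.14, with SDs of 0.18 and 0.10. Neither was called after median centring alone. In the direct, centred comparison neither TIR1 (−0.78) nor PAU16 (−0.12) was called. TIR1 lost its call under 6 planned settings and PAU16 under 5. PAU16 has near-identical relatives, so its copy is uncertain.

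Several other genes, regulators among them, were lower in bdf1Δ+HAL2. BAG7 (YOR134W) stood at −1.13 and −1.68 in bdf1Δ+HAL2, against 0.85 and 0.51 in bdf1Δhda1Δ (difference −2.08 ± 0.15). DAD3 (YBR233W-A), a subunit of the DASH complex that links kinetochores to microtubules, stood at −1.63 and −1.33 in bdf1Δ+HAL2, against 0.64 and 0.53 in bdf1Δhda1Δ (difference −2.07 ± 0.30). CMK2 (YOL016C), a calmodulin-dependent kinase, had a difference of −1.84 ± 0.11. For CMK2 and for GID10 (YGR066C), a substrate receptor of the GID ubiquitin ligase with a difference of −1.93 ± 0.27, the direct and centred values were smaller in size, at −0.56 and −0.54. The bdf1Δ channel of GID10 was not well above background on 1 of the 2 arrays of the bdf1Δhda1Δ pair. GYP7 (YDL234C), a GTPase-activating protein of vesicle transport, differed by −1.49 ± 0.05, and was not called directly (−0.66). The unnamed gene YOR385W stood at −0.87 and −1.25 in bdf1Δ+HAL2, against 1.31 and 1.23 in bdf1Δhda1Δ (difference −2.33 ± 0.21), and at −0.39 in the direct, centred comparison. The remaining lower genes, named because they were called, were ASH1 (YKL185W), a repressor of mating type switching in daughter cells (−1.22 ± 0.03), SUR2 (YDR297W), a sphingolipid hydroxylase (−1.16 ± 0.11), and the kinase gene YPK2. In the direct, centred comparison ASH1 (−0.99) and YPK2 (−0.88) were not called. Also lower were DIA1 (−1.42 ± 0.13), ISF1 (−1.39 ± 0.16), YLR297W (−1.20 ± 0.24) and YMR103C (−1.15 ± 0.17). Of these, DIA1 (−0.71) and YMR103C (−0.43) were not called directly. YLR297W lost its call under 4 planned settings, among them no background correction.

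Of 35 lists with at least 5 measured members, 9 had a median at least 0.3 from that of all genes. Beside those above, these were the proteasome and the heat shock genes, in both of which 0 genes were called. Proteasome genes encode the complex that degrades ubiquitin-tagged proteins. Of 34 measured, 32 had a difference above 0, the highest at 0.80, and the median was 0.44. Their median log2 ratio was 0.41 in bdf1Δ+HAL2 and −0.02 in bdf1Δhda1Δ. PRE6, PRE3 and RPN8, subunits of the core and of the regulatory particle, had the highest differences, at 0.80 ± 0.16, 0.68 ± 0.11 and 0.65 ± 0.09. The 2 below 0, chosen after their values were seen, were no subunits: RPN4, the transcription factor of the proteasome genes (−0.45), and UBI4, polyubiquitin (−0.39). In the direct, centred comparison the median was 0.42.

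Heat shock genes had a median of 0.32 over 34 measured, with 26 above 0. SSA4, SSE1 and SSA1, chaperones of the Hsp70 and Hsp110 families, had the highest differences, at 0.89 ± 0.23, 0.77 ± 0.02 and 0.75 ± 0.17. This median did not hold its size when the strain channels were compared directly: it was −0.11 as measured and 0.09 after centring on the median gene. Mitochondrial ribosomal protein genes had 0 of 19 differences above 0, but their median of −0.21 lay nearer to that of all genes. Cytosolic ribosomal protein genes had 109 of 136 above 0 with a median of 0.12, and many of them are near-identical copies.

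**Figure D4:**
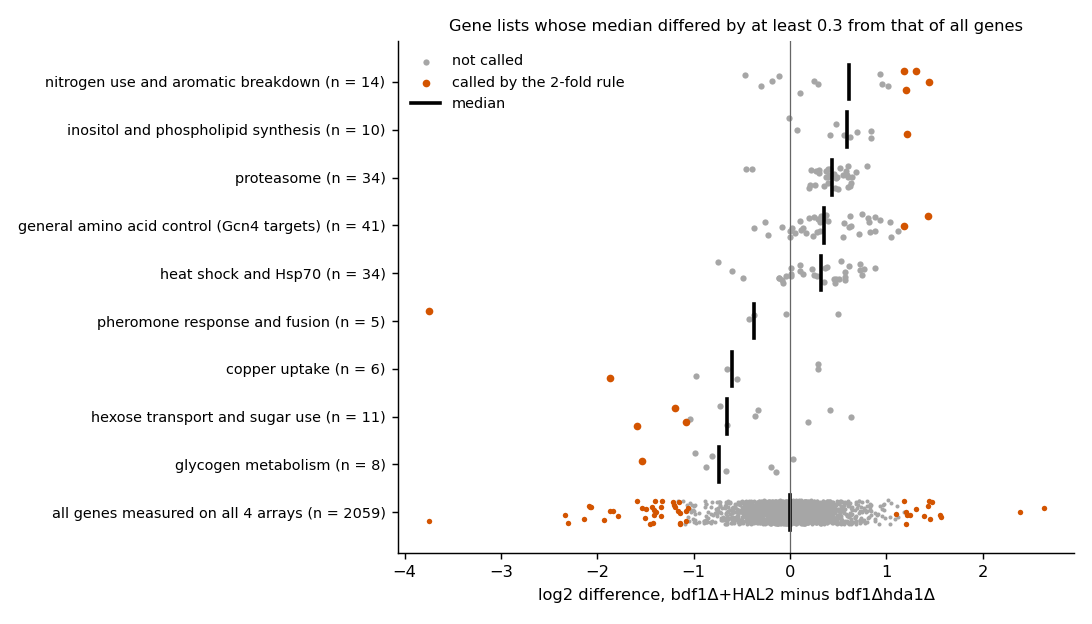
Log2 difference, bdf1Δ+HAL2 minus bdf1Δhda1Δ, for each measured gene of 9 lists and for all 2059 genes (bottom row). Orange points are genes called by the 2-fold rule and black bars are medians, from 0.61 for nitrogen use and aromatic breakdown to −0.74 for glycogen metabolism. The copper and pheromone medians turned to just above 0, and the heat shock median to 0.09, in the direct comparison centred on the median gene.

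Several further lists held no called gene. The list of sulphate assimilation and methionine genes had 8 of 37 members measured and a median of 0.02. Those 8, named after their values were seen, were SAH1, CYS4, GNP1, MUP1, CBF1, SAM2, CYS3 and SAM1. None of them is an enzyme that reduces sulphate, so the median does not describe the pathway that HAL2 serves. SAM1, S-adenosylmethionine synthetase, lay lowest at −1.07. Sodium and potassium transport had a median of 0.09 over 18 genes, sterol synthesis 0.06 over 20, histones 0.05 over 9, and the list of Bdf1 partners, TFIID, SWR1 and deacetylases 0.04 over 11. Ribosome biogenesis had −0.05 over 53 genes and the vacuolar ATPase 0.00 over 11.

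The difference through bdf1Δ is that of the 2 strains' own channels minus that of the bdf1Δ channels on the 2 pairs. Both were computed after scaling the arrays to a common intensity distribution. The direct difference had a median of −0.19 over all genes and was centred on it. Across genes the direct difference then had an SD of 0.53, the bdf1Δ term one of 0.43, and the difference through bdf1Δ one of 0.43. The bdf1Δ term holds spot and array effects common to both channels as well as any change in the bdf1Δ RNA, and these cannot be told apart. As measured, without centring, 10 of the 16 higher genes and 18 of the 36 lower genes were called the same way directly. Over all 2059 genes that comparison called 96. After centring, an alternative chosen after seeing the data, 12 of the 16 and 13 of the 36 were called the same way. Over all genes it called 50 higher and 38 lower. After centring the sign was kept by 15 of 16 and by 33 of 36. The exceptions were PTR2, FIT2, TIS11 and YPL088W (0.11), a putative aryl alcohol dehydrogenase named after its value was seen. The bdf1Δ channel itself, centred likewise, passed 2-fold for 2 of the 16 and 6 of the 36, against 40 of all 2059 genes. URA1 (2.76), GAP1 (3.22), KEX1 (−3.21), RGI1 (−2.62), REE1 (−2.72), GSY1 (−2.13) and BAG7 (−1.93) kept their calls in that comparison, and OAC1 was higher directly (3.13) than through bdf1Δ.

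**Figure D5:**
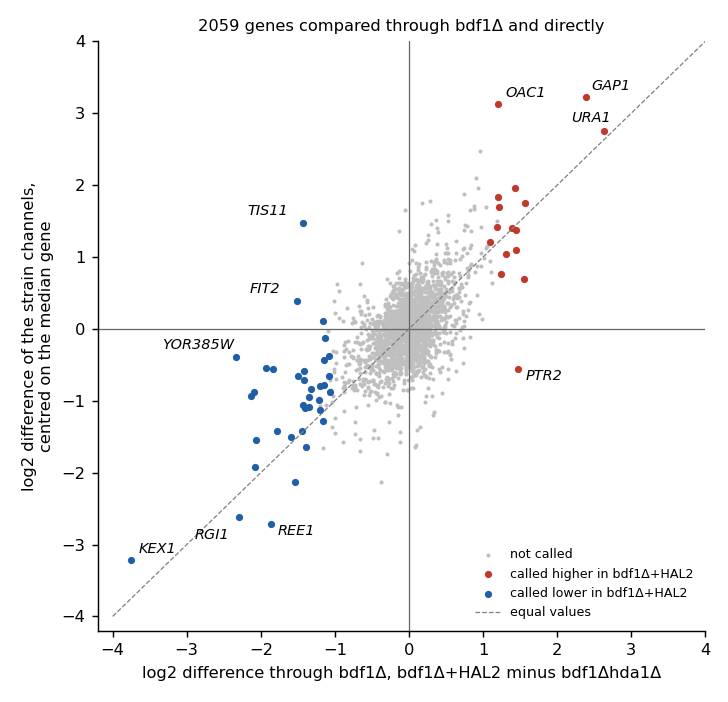
Log2 difference between bdf1Δ+HAL2 and bdf1Δhda1Δ taken through bdf1Δ (horizontal axis) and from the strains' own channels after centring on the median gene (vertical axis), for 2059 genes. Red and blue points are the genes called higher and lower through bdf1Δ, and the dashed line marks equal values. URA1, GAP1 and KEX1 lie far from 0 on both axes, while PTR2, TIS11 and FIT2 change sign between them.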

How the data were processed

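Total RNA was amplified, labelled with Cy5 or Cy3 and hybridised to oligonucleotide arrays with 3 spots per gene, per the labels' protocols. Per the file headers, the deposited scanner output gives spot and local background intensity for each channel. The authors also deposited a linear ratio for every probe, which served as an alternative. Its 4 columns ran as modified strain over bdf1Δ, with medians from 0.992 to 1.04 and Pearson r of 0.92 to 0.95 with the scanner log2 ratios across genes, and 1 further column was not used. The centring of that ratio and the image software are not stated in the sources used.

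Intensity medians were corrected by normexp (offset 50) and normalized by global loess within each array (limma 3.58.1, R 4.3.3). Control spots and spots not found had weight 0. The sign was turned where bdf1Δ carried Cy5. A spot was used when found and with 1 channel over 2 background SDs above background, and a gene when at least 2 of 3 spots were used on all 4 arrays. Saturated spots stayed in. Differences, calls and figures were made in Python 3.11.15 (pandas 2.3.3, NumPy 2.4.6, matplotlib 3.10.9), and the calling was tested on simulated data.

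The R64 table of yeast genes held the locus tags of 5849 of 6388 probes and served for names and gene order only, since the files name no build. No sequences or coordinates were used.

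The comparison, its genes and the 43 gene lists were chosen with earlier results of these data known. Named genes were the 15 highest and 15 lowest called, called list members, genes called in opposite directions, MET22, HDA1, BDF1 and BDF2, and the 3 outermost members of each list whose median lay at least 0.3 from that of all genes. Other named genes are marked as chosen after their values were seen or are given as near-threshold or remaining called genes. No set test was run. Alternatives covered normalization, background, spot filters, the deposited ratio, each array left out, and a direct comparison of strain channels. BDF1 gave no spot above background in any channel of the 4 arrays.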

Additional observations from a re-analysis of the deposited data

Results flagged for a closer look

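RGI1 (YER067W) was called in opposite directions against bdf1Δ, with log2 ratios of −1.24 and −1.08 in bdf1Δ+HAL2 and of 1.16 and 1.12 in bdf1Δhda1Δ. The difference of −2.30 was not tested, since each strain is 1 sample. Directly and centred on the median gene it was −2.62.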

How the results depend on the processing

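No paired analysis was possible because each strain is 1 sample and no test was run; the shared array numbers mark the dye orientation, which the differences already match. The counts of 16 higher and 36 lower genes became 34 and 62 when the strain channels were compared directly, and 50 and 38 after centring on the median gene, an alternative chosen after seeing the data. With spots above background used whether found or not, 69 of 4612 genes were lower. Leaving out arrays gave 19 to 35 higher and 40 to 65 lower genes. With 1 array of each strain left out, 1 orientation made the call. With a single array left out, the remaining array of that strain was compared with both arrays of the other. A difference between opposite dye orientations then also had to pass 2-fold. Of the 52 called genes 20 were measured and kept their call under all 18 planned settings. A gene that a setting did not measure was counted as not kept. With both channels required above background, 48 of the 52 were measured and all 48 kept their call. Signs turned in the direct comparison, as measured and centred, for PTR2 (−0.76 and −0.56), TIS11 (1.29 and 1.48) and FIT2 (0.20 and 0.39). The heat shock median turned to −0.11 as measured, and the copper and pheromone medians to 0.045 and 0.032 centred. The cause was not tested. Signal over background limited the comparison to 2059 of 6388 probes.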

Other observations

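Among the called genes, YMR103C, YPK2 and PGM2 are consecutive on chromosome XIII and all were lower in bdf1Δ+HAL2 than in bdf1Δhda1Δ, at −1.15, −1.06 and −1.08. In the direct comparison centred on the median gene they stood at −0.43, −0.88 and −0.38 and none was called. YPK2 lost its call under 7 of the planned settings and YMR103C under 3. Their probes lie in different printing blocks of the array. FIT2 and YOR385W, both lower, have 2 genes between them on chromosome XV. These positions were looked at after the values were seen and no test was made.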
